A study of Ovis aries with 2 samples.

Results

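Bone morphogenetic protein (BMP) signalling was described at the RNA level through 10 named genes. The genes were the ligands BMP2, BMP4, BMP5 and BMP7, the secreted antagonists FST and NOG, and the target genes ID1, ID2, ID3 and ID4. They were found by symbol among the 26478 features of the count tables, each under a symbol of its own. Their levels were read in classes of cells that were set apart by marker genes, in every kept cell of both libraries.

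BMP ligands are secreted proteins that bind receptor serine/threonine kinases, which phosphorylate the transcription factors SMAD1 and SMAD5. Follistatin, encoded by FST, and noggin, encoded by NOG, bind ligands outside the cell and keep them from the receptors; follistatin also binds activins. ID genes are direct targets of these SMADs, and ID proteins lack a DNA-binding region and hold E proteins such as TCF3, TCF4 and TCF12 away from DNA. In the early embryo the pathway is known for patterning the mesoderm, the heart, the neural tube and the limb and tail buds.

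Single cells of sheep embryos at day 16 were sequenced with a 3' droplet method, in 1 pooled library per breed. The control group was the Ujumqin breed and the other group was the Hulunbuir short-tailed breed; no treatment of the embryos is given. The ewes of both breeds had received progesterone sponges and gonadotropin (PMSG) before mating. Before dissociation the tissue outside the embryo was removed under a microscope, and red cells were lysed. The design text gives 3 for each group, and with the embryos pooled there is 1 library per breed and no test between the breeds was run.

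The Ujumqin library held 212933364 unique molecular identifiers (UMIs) over 17059 barcodes and the Hulunbuir library held 131385353 over 10709. Barcodes with 200 genes or more and a mitochondrial share under 10% of UMIs were retained, which left 14554 and 9583 cells with medians of 9519 and 11879 UMIs. A cell joined a class when at least 2 of the markers on 1 list were high in it and no other list had as many. This placed 7380 Ujumqin cells and 4016 Hulunbuir cells, and 10 and 11 classes reached 50 cells. Each class carries the name of its list, to be read as cells like that type by these markers. At the minimum of 2 markers were 2339 of the 7257 Ujumqin cells and 2561 of the 3930 Hulunbuir cells in these classes. Markers kept out of the gate were each over 2 times the median of the other classes in 7 of 10 and 7 of 11 classes. A yolk sac endoderm class and an allantois-type class were found in both libraries, and the erythroid class held 4925 Ujumqin cells against 4 Hulunbuir cells. The libraries shared 61 barcodes.

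Levels are given in CPM, the UMIs counted for a gene scaled to a class total of 1000000, with an exact Poisson interval at 95% that covers counting error only. Counts at the 3' end are not scaled by length, so levels were compared between classes and libraries and not between genes. Ranges and orders of levels are over the classes of at least 50 cells, and smaller classes that lay above them on more than a few UMIs are given beside them for most genes. Classes were called not told apart where the interval of their ratio included 1.

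BMP2, a ligand known for its part in heart formation, had few counts, with 272 UMIs in kept Ujumqin cells and 226 in kept Hulunbuir cells. In the Ujumqin library its level was highest in the yolk sac endoderm class, at 12.4 CPM (interval 9.49 to 16.0). The next class, cardiomyocyte, stood at 2.77 CPM from 2 UMIs, and the median of the 10 classes was 1.40 CPM. The yolk sac class was therefore set apart from the rest, and the 8 pairs of neighbours below it in the order were not told apart. In the Hulunbuir library the cardiomyocyte class led with 4.88 CPM (interval 2.11 to 9.61, 8 UMIs). None of the 10 neighbouring pairs there was told apart, down to the somite class with 0 UMIs.

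BMP4, a ligand known for its part in forming posterior mesoderm and the allantois, differed over a wide range of classes. In the Ujumqin library the intermediate mesoderm class had 64.1 CPM (interval 50.7 to 80.0), above the cardiomyocyte class with 29.1 CPM from 21 UMIs in 6 cells. The allantois-type and the PRRX1 TWIST1 mesenchyme classes followed with 14.4 and 12.2 CPM and were not told apart. Erythroid cells had the lowest level, 0.736 CPM, and the median class had 4.14 CPM. In the Hulunbuir library the cardiomyocyte class led with 87.8 CPM (interval 74.04 to 103), and the caudal progenitor class came next with 65.3 CPM (interval 59.9 to 71.2). From the caudal progenitor class down to the neural tube class no neighbours were told apart, with 4 classes in between from 54.6 to 40.0 CPM. The PRRX1 TWIST1 mesenchyme class, at 30.5 CPM, and the presomitic class, at 16.6 CPM, each lay below the class above by the counting interval. The BMP4 UMIs of the neural tube class came from few of its cells, and the interval does not cover such spread over cells. Endothelium and somite classes had the lowest levels, 2.54 and 2.40 CPM.

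BMP4 was spread unevenly over cells. In the Hulunbuir caudal progenitor class 42.0% of cells had a BMP4 UMI, and in the neural tube class 9.33% did, although the CPM of the neural tube class was 39.6. The 71 BMP4 UMIs of the neural tube class came from 14 of its 150 cells. With every cell thinned to 1000 UMIs the shares were 5.56% and 0.667%. In the Ujumqin erythroid class, taken as the background, 1.54% of cells had a UMI at a median of 21064 UMIs, and 0.102% after thinning. The class medians were 12909.5 UMIs for Hulunbuir caudal progenitors and 9249 for the Hulunbuir neural tube. The Hulunbuir library held only 4 erythroid cells, so its own background was not measured for any gene.

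BMP5, a ligand of mesenchyme and skeletal primordia, was highest in the PRRX1 TWIST1 mesenchyme class of both libraries, with 19.98 CPM in Ujumqin cells and 21.3 CPM in Hulunbuir cells. The allantois-type class followed with 18.2 and 18.1 CPM and was not told apart from it in either library. The allantois-type class was also not told apart from the third class, cardiomyocyte with 11.1 CPM in Ujumqin cells and yolk sac endoderm with 17.0 CPM in Hulunbuir cells. The smaller Ujumqin splanchnic class, with 21 cells, had 20.5 CPM (interval 11.7 to 33.4). The share of PRRX1 TWIST1 cells with a BMP5 UMI was 39.4% and 30.0%, at median depths of 24958 and 17608.5 UMIs, and 1.57% and 2.90% after thinning. Ujumqin erythroid cells had 0.609%, and 0.0407% after thinning. No BMP5 UMI was counted in the intermediate mesoderm class of either library, which allows up to 2.47 CPM in Ujumqin cells and up to 1.17 CPM in Hulunbuir cells at a floor of 3 counts.

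BMP7, which is known for its part in kidney formation, led in the class named for intermediate mesoderm in both libraries. Of the 3 markers of this class kept out of the gate, 1 in Ujumqin and 2 in Hulunbuir cells were over 2 times the median of the other classes. SST, C1QA and INS were among the genes that led over the other classes in its Hulunbuir cells. The level of BMP7 there was 93.7 CPM (interval 77.3 to 113) in Ujumqin cells and 82.2 CPM (interval 71.5 to 94.1) in Hulunbuir cells. In the Ujumqin library the KRT7 epithelium class, at 81.6 CPM, was not told apart from it, and the PRRX1 TWIST1 and allantois-type mesenchyme classes formed the next level with 56.7 and 54.2 CPM. In the Hulunbuir library the next 6 classes lay between 46.2 and 31.6 CPM, with no neighbours told apart. The presomitic, endothelium, somite and neural tube classes were at the bottom of the Hulunbuir order with 7.94 to 4.46 CPM. The smaller KRT7 epithelium class of the Hulunbuir library, with 40 cells, had 104 CPM (interval 84.4 to 126). A BMP7 UMI was found in 72.7% of Ujumqin and 59.2% of Hulunbuir intermediate mesoderm cells, at medians of 16871 and 15246.5 UMIs, against 1.75% of Ujumqin erythroid cells. After thinning these shares were 5.45%, 5.30% and 0.0814%.

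FST, the follistatin gene, had a different leading class in each library among the classes of at least 50 cells. The Ujumqin somite class was under this minimum, with 31 cells, and had 503 CPM of FST (interval 458.3 to 550.7). The Ujumqin caudal progenitors, with 15 cells, had 408 CPM, and 12 of these cells were at the minimum of 2 markers. The Hulunbuir caudal progenitors, with 576 cells, had only 11.3 CPM. In the compared Ujumqin classes FST was highest in the yolk sac endoderm class with 212.5 CPM (interval 199.7 to 225.9), from 1025 UMIs in 83 of 352 cells. The intermediate mesoderm class had 97.0 CPM, the PRRX1 TWIST1 mesenchyme class 49.8 CPM and the allantois-type class 41.8 CPM, each told apart from the next. In Hulunbuir cells the somite class had 490.4 CPM (interval 457.4 to 525.2), and the presomitic and intermediate mesoderm classes followed with 101.7 and 91.2 CPM. Thus FST was high along the paraxial series from presomitic cells to somites and in the intermediate mesoderm, and it was at 1.10 CPM in the splanchnic mesoderm from 1 UMI. In the somite class 90.3% of cells had an FST UMI, and 29.2% did after thinning, at a median of 11601 UMIs. In Ujumqin erythroid cells the shares were 1.44% and 0.0814%.

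NOG, the noggin gene, was near the limit of detection, with 26 UMIs in 26 Ujumqin cells and 77 UMIs in 75 Hulunbuir cells. Its highest Hulunbuir level was in the neural tube class, at 2.79 CPM (interval 0.905 to 6.50) from 5 UMIs. In the Ujumqin library the allantois-type class had 0.577 CPM from 2 UMIs and the PRRX1 TWIST1 class 0.333 CPM from 12 UMIs. NOG was at 0 UMIs in 7 of the 10 Ujumqin classes and in 4 of the 11 Hulunbuir classes, so most of its order was not detectable at this depth.

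**Figure D1:**
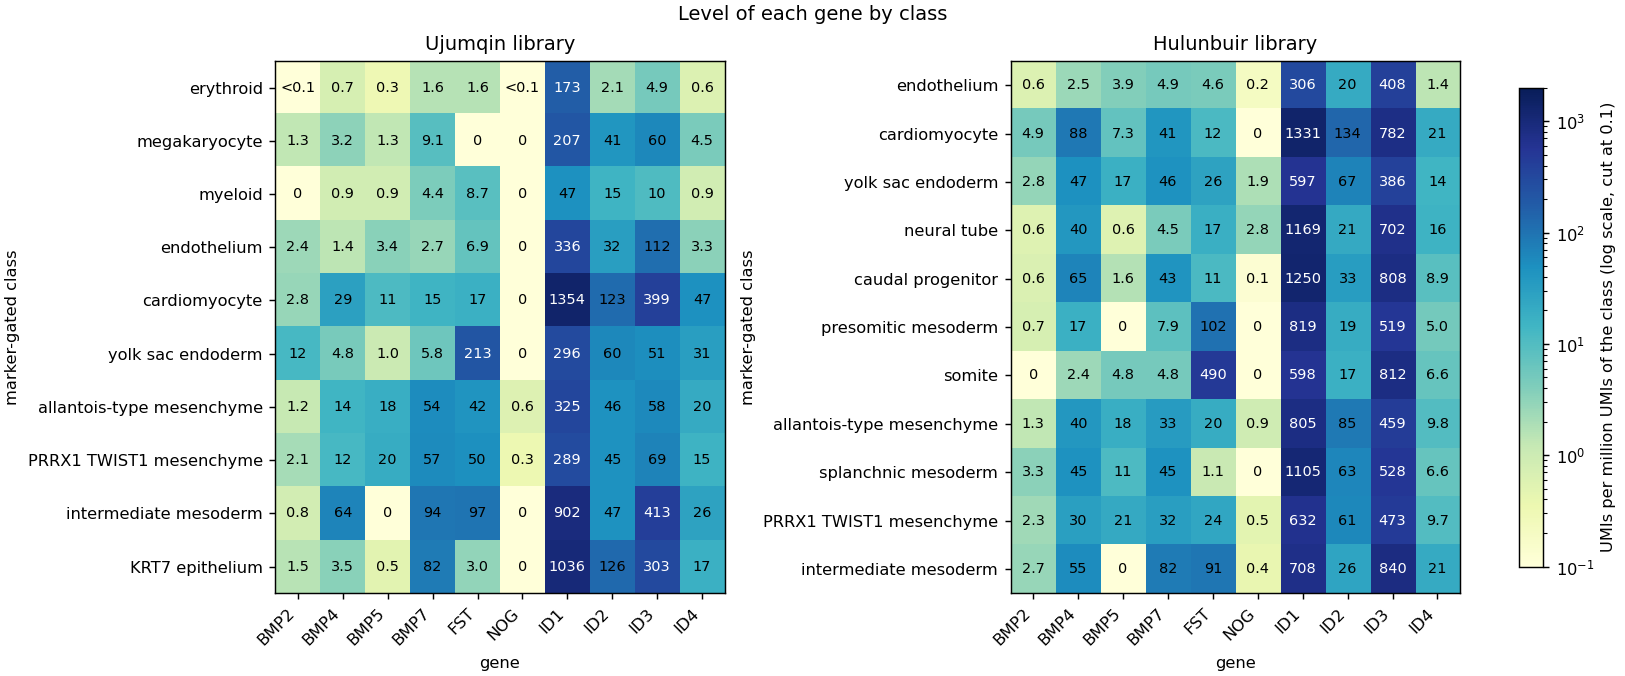
Level of the 10 genes (columns) in each marker-gated class (rows) of the Ujumqin library (left) and the Hulunbuir library (right), in UMIs per 1000000 UMIs of the class, with the colour on a log scale cut at 0.1. FST stands out in the Ujumqin yolk sac endoderm class (212.5) and the Hulunbuir somite class (490.4), and ID1 and ID3 were counted in every class shown.

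ID1 was counted in every class of at least 50 cells in both libraries. Over these classes its level ran from 47.1 CPM in myeloid cells over a median of 310.4 CPM to 1354 CPM in the Ujumqin library, and from 306.4 CPM in endothelium over a median of 805.3 CPM to 1331 CPM in the Hulunbuir library. The cardiomyocyte class was highest in both libraries, with intervals of 1271 to 1442 CPM and 1276 to 1388 CPM. In Ujumqin cells the KRT7 epithelium and intermediate mesoderm classes came next with 1036 and 902 CPM, and each step was told apart. In Hulunbuir cells the caudal progenitor class had 1250 CPM, and the neural tube and splanchnic mesoderm classes had 1169 and 1105 CPM and were not told apart. Endothelium, the lowest Hulunbuir class, had 336.0 CPM in Ujumqin cells. Smaller classes lay above the cardiomyocytes, the Ujumqin somites with 1993 CPM and caudal progenitors with 1834 CPM, and the Hulunbuir KRT7 epithelium with 1590 CPM and surface ectoderm, of 25 cells, with 1477 CPM. The median depth of cardiomyocytes was 2805 UMIs in Ujumqin and 11263 in Hulunbuir cells. Their marker NKX2-5 had 0 UMIs in both libraries, and STMN2, of the neuron list, was among the leading genes of the Ujumqin ones. With the mean of the cells' CPM the intermediate mesoderm led ID1 in Ujumqin cells.

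ID1 was also counted in 83.0% of Ujumqin erythroid cells, and in 15.3% after thinning, at 172.6 CPM. After thinning the shares of erythroid cells with a UMI were 0.407% for ID3, 0.183% for ID2 and 0.0814% for ID4. In erythroid cells 5 leading features, 4 of them without a symbol, took 48.4% of the UMIs, and without these the level of ID1 was 334.4 CPM (interval 329.6 to 339.2). Outside the erythroid class 49.8% of Ujumqin and 89.7% of Hulunbuir cells had an ID1 UMI, or 29.5% and 48.4% after thinning.

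ID2 was highest in the KRT7 epithelium and cardiomyocyte classes of the Ujumqin library, at 126.2 and 123.4 CPM, which were not told apart. In the Hulunbuir library the cardiomyocyte class led with 134.1 CPM (interval 117 to 153), above the allantois-type class with 84.8 CPM, while the smaller KRT7 epithelium class had 161.5 CPM (interval 137.0 to 189.2). The lowest Hulunbuir levels of ID2 were 21.2 CPM in the neural tube, 20.1 CPM in endothelium, 19.5 CPM in presomitic cells and 16.8 CPM in somites, and caudal progenitors had 32.8 CPM. These 4 classes were not told apart from their neighbours.

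ID3 was lower over the Ujumqin classes of at least 50 cells than over the Hulunbuir ones. The Ujumqin levels ran from 4.91 CPM in erythroid cells over a median of 64.3 CPM to 412.7 CPM in intermediate mesoderm, and the Hulunbuir levels from 385.6 CPM over a median of 528.0 CPM to 840.3 CPM. The lowest Hulunbuir class, yolk sac endoderm, was thus near the Ujumqin cardiomyocyte class (399.2 CPM), and the top class was intermediate mesoderm in both libraries. Smaller Ujumqin classes lay inside the Hulunbuir range, with 836 CPM (interval 778.5 to 897.4) in somites, 598 CPM in caudal progenitors, 556 CPM in neural crest (12 cells) and 459 CPM in the neural tube (35 cells). The Ujumqin somites were thus level with the 811.6 CPM of Hulunbuir somites. Smaller Hulunbuir classes lay above the range, with 1129 CPM in KRT7 epithelium and 1514 CPM in neural crest (8 cells). Intermediate mesoderm, somite, caudal progenitor and cardiomyocyte classes of the Hulunbuir library lay between 840.3 and 782.2 CPM, and no neighbours among them were told apart. An ID3 UMI was found in 58.6% of Ujumqin and 94.7% of Hulunbuir PRRX1 TWIST1 cells, or 7.20% and 36.7% after thinning, against 0.407% of Ujumqin erythroid cells.

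ID4 had its highest level in the cardiomyocyte class of both libraries, at 47.1 CPM (interval 32.6 to 65.9) and 20.7 CPM (interval 14.4 to 29.0), each from 34 UMIs. The smaller Hulunbuir surface ectoderm and KRT7 epithelium classes had 29.7 and 23.1 CPM, with intervals that overlap those of cardiomyocytes. The Ujumqin yolk sac endoderm class followed with 31.3 CPM, and the Hulunbuir intermediate mesoderm class with 20.7 CPM. In the Hulunbuir library 9 of the 10 neighbouring pairs were not told apart, with a median of 9.73 CPM. Endothelium was low in both libraries, with 3.26 and 1.42 CPM. With the mean of the cells' CPM the lead passed to KRT7 epithelium in Ujumqin and to yolk sac endoderm in Hulunbuir cells.

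Each ligand was next counted by source, as the share of its UMIs in kept cells that a class held. The PRRX1 TWIST1 mesenchyme held the largest share of any named class for all 4 ligands in both libraries. Of BMP5 UMIs it held 53.6% in Ujumqin and 48.6% in Hulunbuir cells, of BMP7 UMIs 43.6% and 27.3%, of BMP4 UMIs 35.5% and 21.0%, and of BMP2 UMIs 27.9% and 36.3%. The class held 17.2% and 27.2% of all UMIs, so its BMP4 share was above its share of UMIs in the Ujumqin library and below it in the Hulunbuir library. The Ujumqin yolk sac class held 22.1% of BMP2 and 16.4% of FST UMIs with 2.30% of all UMIs. The Hulunbuir somite class held 16.1% of FST UMIs with 1.29% of all UMIs. Caudal progenitors, with 6.23% of all Hulunbuir UMIs, held 10.3% of BMP4 and 8.48% of BMP7 UMIs.

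Cells in no class were a large source as well. They held 48.0% of BMP4, 48.1% of FST, 44.6% of ID1 and 42.2% of ID3 UMIs in the Hulunbuir library, where they held 37.2% of all UMIs. In the Ujumqin library they held 16.5% of BMP4, 20.7% of FST, 24.3% of ID1 and 38.0% of ID3 UMIs, with 10.5% of all UMIs. Their median depth was 8212 and 1090 UMIs.

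**Figure D2:**
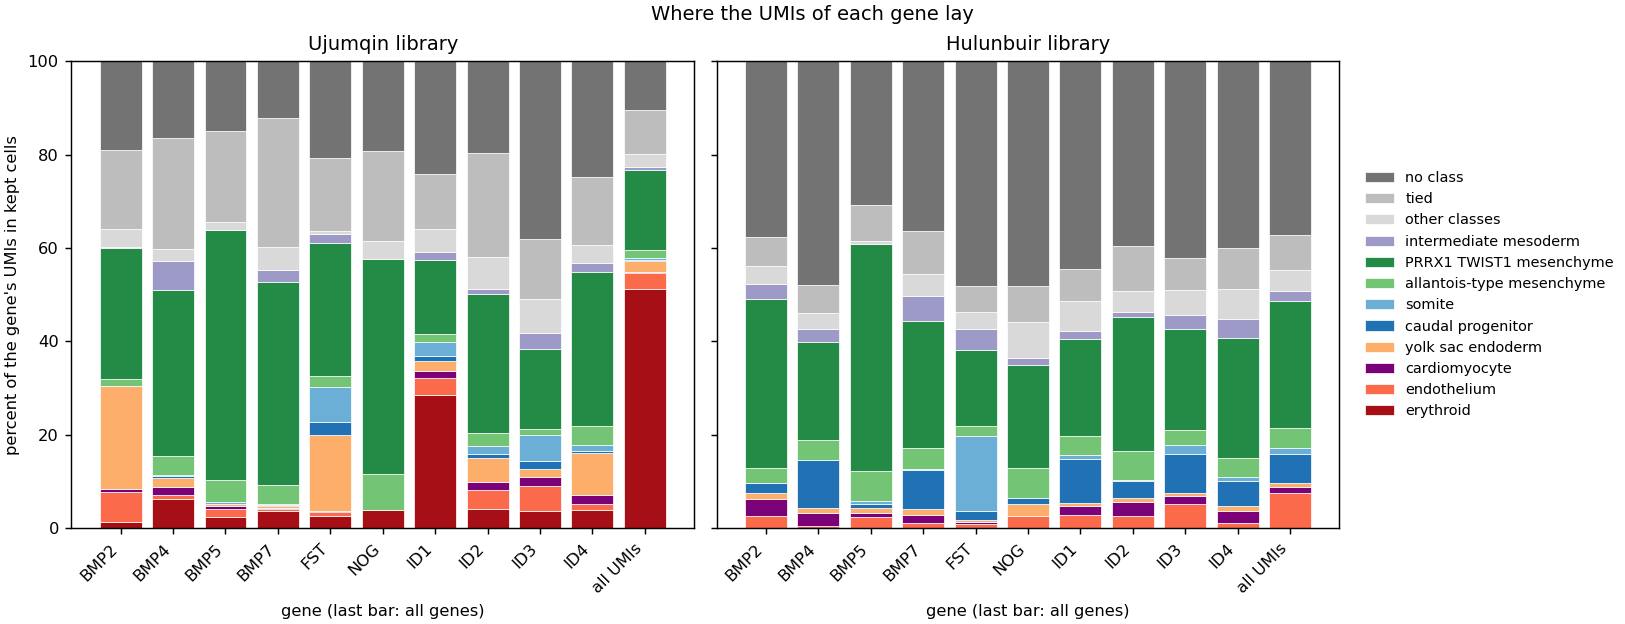
Share of the UMIs of each gene (bars) held by each class in kept cells of the Ujumqin library (left) and the Hulunbuir library (right), with the same shares of all UMIs in the last bar; "no class" cells had too few markers and "tied" cells had equal numbers from several lists. The PRRX1 TWIST1 mesenchyme was the largest class for BMP5, at 53.6% and 48.6%, and the yolk sac endoderm (left) and somite (right) classes held 16.4% and 16.1% of FST.

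The ligand levels were then set beside the ID levels of the same classes. The summed level of the 4 ligands was highest in the intermediate mesoderm class of the Ujumqin library, 158.7 CPM, and in the cardiomyocyte and intermediate mesoderm classes of the Hulunbuir library, 141.4 and 139.5 CPM. The summed level of the 4 ID genes was highest in the cardiomyocyte class of both libraries, at 1924 and 2268 CPM, among the classes of at least 50 cells. The smaller Ujumqin somite and Hulunbuir KRT7 epithelium classes had 2956 and 2904 CPM. Ujumqin caudal progenitors (2543 CPM, 15 cells) and Hulunbuir neural crest (2526 CPM, 8 cells) and surface ectoderm (2346 CPM, 25 cells) also lay above the cardiomyocytes. The Ujumqin somites had few ligand UMIs beside their ID level, 6 of BMP5, 6 of BMP7 and 1 of BMP4. These smaller classes are not in the rank correlations below. In Ujumqin cardiomyocytes the ligand sum was 58.2 CPM, below that of 4 other classes. The Hulunbuir caudal progenitors had 110.5 CPM of ligands and 2099 CPM of ID genes, and the splanchnic mesoderm had 104.9 and 1702 CPM. The Ujumqin KRT7 epithelium had 87.2 CPM of ligands and 1482 CPM of ID genes, and BMP7 made up 93.7% of its ligand UMIs.

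In other classes the sums stood further apart in order. The Ujumqin PRRX1 TWIST1 and allantois-type mesenchyme classes had 91.0 and 87.9 CPM of ligands and 418.3 and 450.0 CPM of ID genes. The Hulunbuir somite class had 12.01 CPM of ligands, the same order as the 11.9 CPM of endothelium, and its ID sum was 1433 CPM against 735.8 CPM in endothelium. The neural tube class had 45.1 CPM of ligands beside 1908 CPM of ID genes, and BMP4 made up 87.7% of its ligand UMIs.

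Over the classes of 1 library the Spearman rank correlation of the ligand sum with the ID sum was 0.564 in the Ujumqin library (10 classes) and 0.473 in the Hulunbuir library (11 classes). With BMP4 alone it was 0.673 and 0.582. The classes of a library share its depth and its free RNA and are not replicates, so these values are given as descriptions. Leaving out 1 class at a time moved the ligand sum's value from 0.417 (without the erythroid or the myeloid class) to 0.70 (without the PRRX1 TWIST1 mesenchyme) in Ujumqin cells. In Hulunbuir cells the range was 0.297 (without endothelium or cardiomyocytes) to 0.673 (without yolk sac endoderm). A gate of 3 markers left 0.30 and 0.143.

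**Figure D3:**
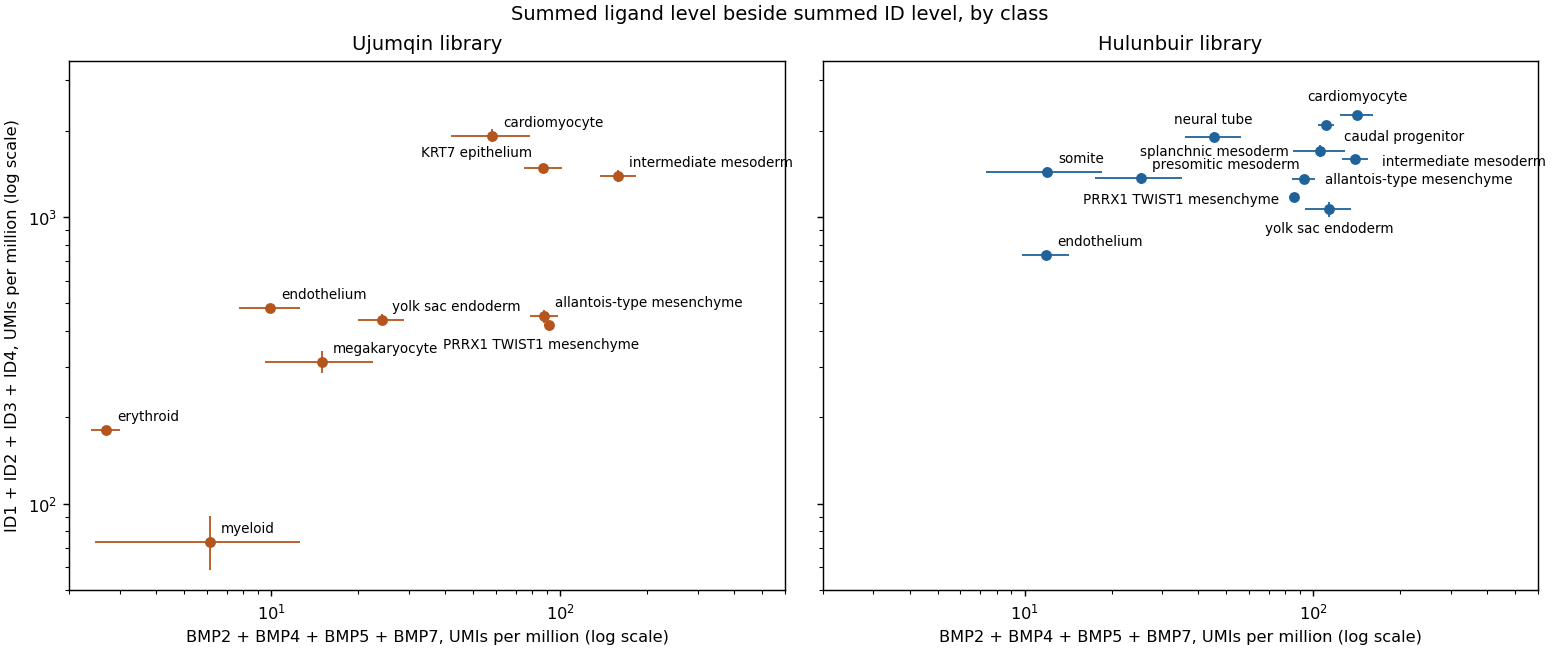
Summed level of BMP2, BMP4, BMP5 and BMP7 (x axis) and of ID1 to ID4 (y axis) in each class of the Ujumqin library (left) and the Hulunbuir library (right), in UMIs per 1000000 UMIs on log scales, with 95% counting intervals as bars. Cardiomyocytes were highest in the ID sum in both panels (1924 and 2268), and Hulunbuir somites had 12.01 of ligand beside 1433 of ID genes.

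FST was counted against the ligands within each class. For each ligand UMI there were 40.9 FST UMIs in the Hulunbuir somite class, 8.84 in the Ujumqin yolk sac endoderm class and 4.03 in the Hulunbuir presomitic class. The value was at or under 1.43 in the other classes of at least 50 cells, down to 0.011 in the Hulunbuir splanchnic mesoderm and 0 in Ujumqin megakaryocytes. The smaller Ujumqin somite class, with 31 cells, had 466 FST UMIs beside 6 of BMP5, 6 of BMP7 and 1 of BMP4. The Ujumqin caudal progenitors, with 15 cells, had 169 FST UMIs beside 7 of BMP4 and 10 of BMP7. FST thus far outnumbered the ligands in the somites of both libraries. The Hulunbuir somite class had an ID3 level of 811.6 CPM, which was not told apart from the levels of the intermediate mesoderm and caudal progenitor classes.

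The libraries were compared in the 6 classes that reached 50 cells in both. A log2 fold is the Hulunbuir level over the Ujumqin level. With 1 library per breed a difference was called by size alone, at 2-fold or more with at least 20 UMIs over both libraries, and the breed cannot be told apart from the library. Of the 60 pairs of a gene and a class, 51 had enough UMIs, 15 were called higher and 9 lower in the Hulunbuir library. Over the same 6 classes 19.4% of 41886 tested pairs of a feature and a class were called higher and 4.19% lower. By gene, ID3 was higher in 5 of 6 classes and BMP4 in 4 of 6, and ID4 was lower in 4 of 6 and FST in 3 of 6. No member was called in all 6 classes, and 32 and 15 of 4282 features counted in all of them were higher and lower in all.

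In the PRRX1 TWIST1 mesenchyme, the largest shared class, ID3 was at 68.8 CPM in Ujumqin and 472.6 CPM in Hulunbuir cells, a log2 fold of 2.78 (interval 2.72 to 2.84). ID1 was at 288.8 and 631.9 CPM (log2 fold 1.13, interval 1.10 to 1.16), and BMP4 at 12.2 and 30.5 CPM (log2 fold 1.32, interval 1.16 to 1.48). These were the 3 higher calls among 10 members, and 14.0% of the 10559 features of this class were called higher. FST was the lower call, at 49.8 and 23.7 CPM (log2 fold -1.07, interval -1.19 to -0.95), with 3.98% of features called lower. BMP7 was at 56.7 and 31.6 CPM (log2 fold -0.85), and BMP5, at 19.98 and 21.3 CPM, had a log2 fold of 0.09 (interval -0.06 to 0.24). The median of all features was 0.29, and that of the members was 0.29.

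The allantois-type mesenchyme had 3 markers kept out of the gate. Of these, 2 in Ujumqin and 1 in Hulunbuir cells were over 2 times the median of the other classes. The list of PRRX1 TWIST1 mesenchyme summed to 5750 and 2398 CPM in it, beside 7590 and 3490 CPM in the PRRX1 TWIST1 class. How far the 2 classes hold distinct cells was not tested. In the allantois-type class the higher calls were also ID3, BMP4 and ID1. ID3 was at 58.2 and 459.2 CPM (log2 fold 2.98), BMP4 at 14.4 and 40.0 CPM (1.47) and ID1 at 325.2 and 805.3 CPM (1.31). They were 3 of 8 members with enough UMIs, against 13.6% of 7102 features called higher. FST, at 41.8 and 19.99 CPM (log2 fold -1.06), and ID4, at 20.5 and 9.81 CPM (-1.06), were the lower calls, against 3.75% of features. BMP5 had 18.2 and 18.1 CPM, with an interval of the log2 fold from -0.47 to 0.48.

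In the cardiomyocyte class the higher calls were a pair of ligands. BMP4 was at 29.1 and 87.8 CPM (log2 fold 1.59, interval 0.93 to 2.33) and BMP7 at 15.2 and 41.5 CPM (1.44, interval 0.51 to 2.51). These were 2 of 8 members, against 15.3% of 4745 features called higher. ID1 was at 1354 and 1331 CPM, with an interval of the log2 fold from -0.14 to 0.09. ID3, at 399.2 and 782.2 CPM, had a log2 fold of 0.97 and lay just inside the 2-fold limit. ID4 was called lower at 47.1 and 20.7 CPM (log2 fold -1.18), against 2.26% of features.

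In endothelium ID3 was at 111.5 and 407.9 CPM (log2 fold 1.87, interval 1.76 to 1.98), the only higher call among 9 members, against 18.3% of 8259 features. ID1 was at 336.0 and 306.4 CPM (log2 fold -0.13). ID4, at 3.26 and 1.42 CPM (-1.19), and BMP2, at 2.41 and 0.610 CPM (-1.98, interval -3.61 to -0.57, from 17 and 6 UMIs), were called lower, against 4.26% of features. The 4 ligands summed to 9.91 and 11.9 CPM in endothelium.

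In intermediate mesoderm 1 of 7 members was called. ID3 was at 412.7 and 840.3 CPM (log2 fold 1.03, interval 0.89 to 1.17), against 11.2% of 5833 features called higher and 2.97% called lower. The other members stayed inside 2-fold. BMP4 was at 64.1 and 54.6 CPM, BMP7 at 93.7 and 82.2 CPM and FST at 97.0 and 91.2 CPM, and the interval of each log2 fold included 0. ID2 was at 46.9 and 25.7 CPM (log2 fold -0.87).

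The yolk sac endoderm class differed in its own markers as well. The 9 genes of its list summed to 232004 CPM in Ujumqin and 9644 CPM in Hulunbuir cells, and AHSG alone had 106340 and 4136 CPM. The list of PRRX1 TWIST1 mesenchyme, with 8 of its 10 genes counted in both libraries and TWIST2 and ALX1 at 0, summed to 545.5 and 2693 CPM. The median depth was 914.5 and 16649 UMIs. In this class BMP4 (4.77 and 47.1 CPM), BMP5 (1.04 and 17.0 CPM), BMP7 (5.81 and 46.2 CPM), ID1 (295.6 and 596.9 CPM) and ID3 (51.4 and 385.6 CPM) were called higher. FST (212.5 and 26.4 CPM), BMP2 (12.4 and 2.83 CPM) and ID4 (31.3 and 14.1 CPM) were called lower. Of 5388 features 52.0% were called higher and 8.07% lower, with a median log2 fold of 1.04. The part of mesenchyme RNA in these values was not tested, and without this class the members had 10 higher and 6 lower calls. In the other shared classes 11.2 to 18.3% of features were called higher and 2.26 to 4.26% lower.

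**Figure D4:**
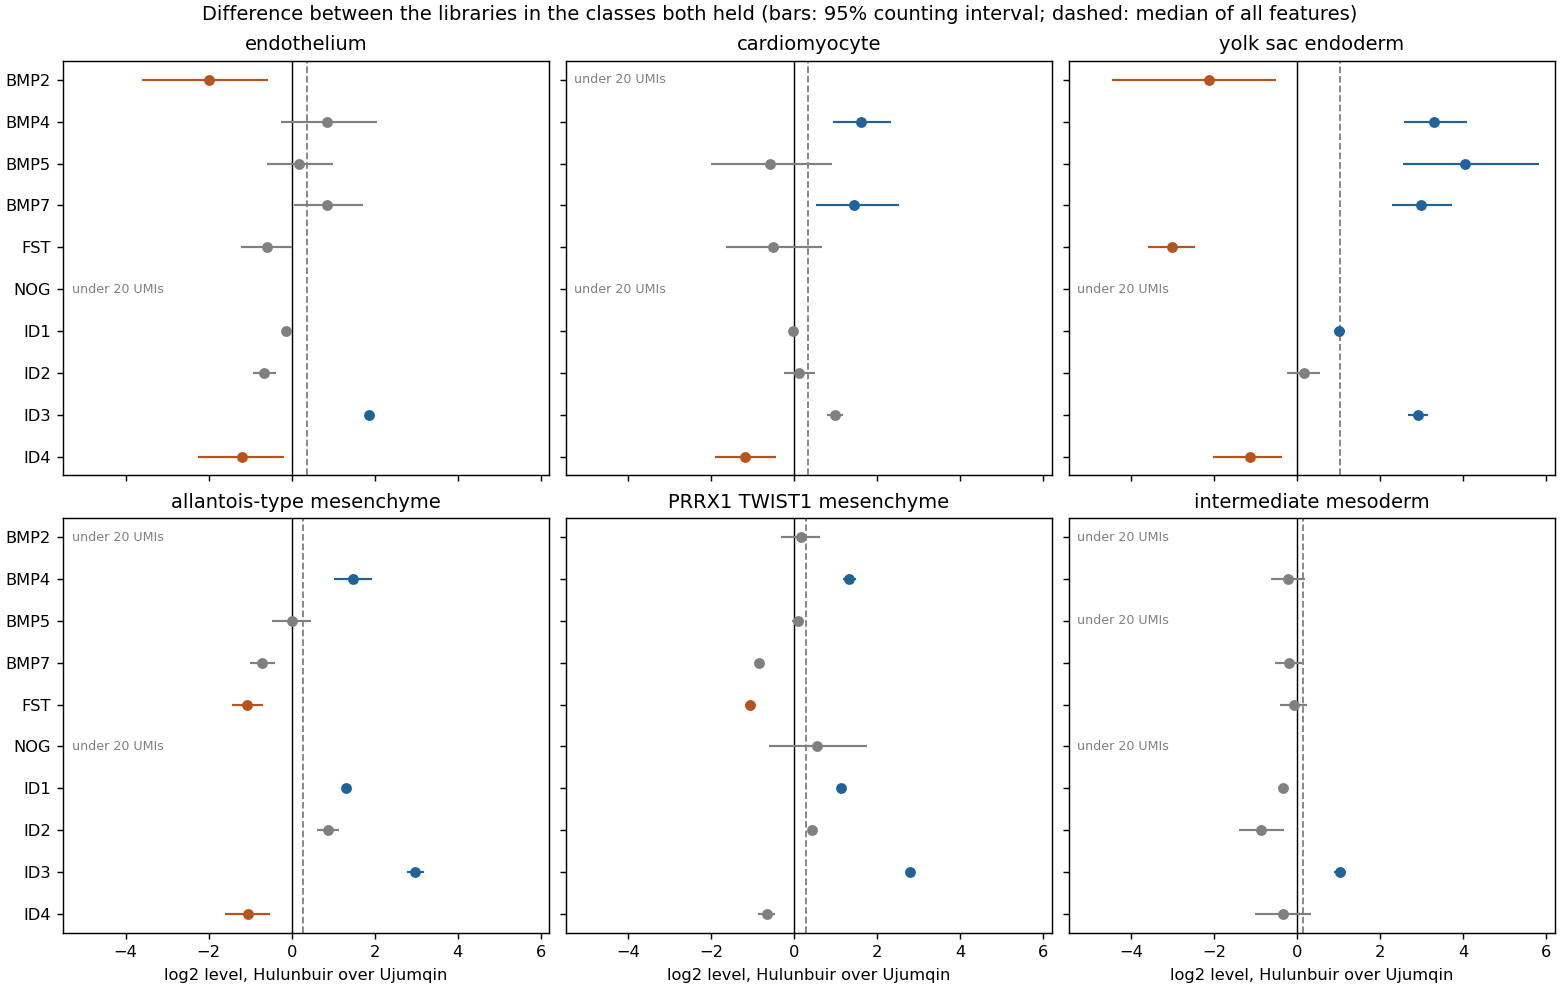
Log2 fold of each gene, Hulunbuir over Ujumqin level, in the 6 classes that both libraries held, with 95% counting intervals as bars and the median of all features of the class as a dashed line. Blue points were called higher, orange points lower and grey points neither. ID3 lies to the right in all panels, from 0.97 in cardiomyocytes to 2.98 in the allantois-type mesenchyme.

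In every shared class more features were higher than lower in the Hulunbuir library. Of all calls 77.9 to 87.2% were higher, and with folds centred on the class median the share was 42.8 to 67.2%. After centring the members had 12 higher and 12 lower calls. Of all features 820 were then higher and 672 lower of 8259 in endothelium, and 407 and 199 of 4745 in cardiomyocytes. In the yolk sac class they were 785 and 1051 of 5388, and in the allantois-type class 617 and 423 of 7102. The PRRX1 TWIST1 class had 900 and 693 of 10559, and intermediate mesoderm 512 and 258 of 5833. BMP4 then remained higher in the cardiomyocyte, yolk sac, allantois-type and PRRX1 TWIST1 classes. ID3 remained higher in endothelium and in the yolk sac, allantois-type and PRRX1 TWIST1 classes, and its log2 fold in intermediate mesoderm fell under the limit. ID1 remained higher in the allantois-type class alone. ID2 came to be called lower in endothelium and intermediate mesoderm, and BMP7 in the PRRX1 TWIST1 mesenchyme.

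The ratio of ID3 to ID1 does not depend on the total of a class. It was 0.24 (interval 0.23 to 0.25) in Ujumqin and 0.75 (interval 0.73 to 0.76) in Hulunbuir PRRX1 TWIST1 mesenchyme. In endothelium it was 0.33 and 1.33, in cardiomyocytes 0.29 and 0.59, in the allantois-type class 0.18 and 0.57, in the yolk sac class 0.17 and 0.65, and in intermediate mesoderm 0.46 and 1.19. The ratio was thus higher in the Hulunbuir library in all 6 classes, without overlap of the intervals. Among classes of at least 50 cells it was lowest in Ujumqin erythroid cells, at 0.03, and highest in Hulunbuir somites, at 1.36 (interval 1.25 to 1.47). In the smaller Ujumqin somite class it was 0.42 and in the Ujumqin neural crest 0.80. Other Ujumqin classes without a Hulunbuir partner lay between 0.22 and 0.29.

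**Figure D5:**
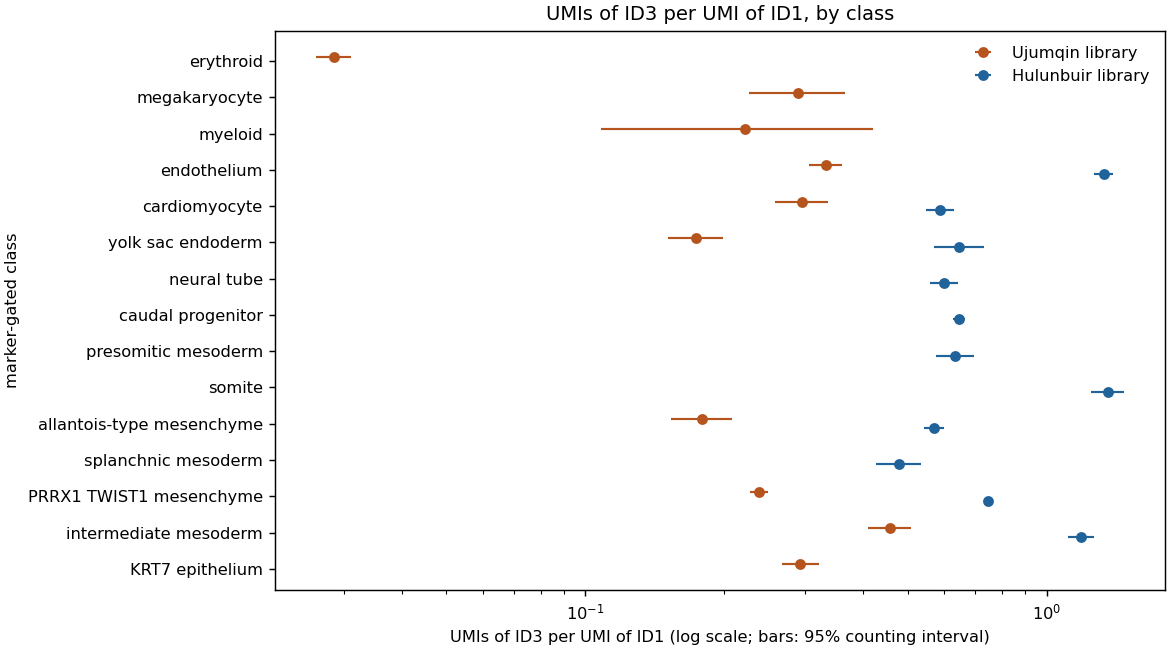
UMIs of ID3 per UMI of ID1 (x axis, log scale) in each class (rows) of the Ujumqin library (orange) and the Hulunbuir library (blue), with 95% counting intervals as bars. Every Hulunbuir class shown lies at 0.48 or above, and every Ujumqin class shown at 0.46 or below.

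The summed level of 9 immediate early genes, which dissociation of tissue is known to induce, differed between the libraries. It was lower in the Hulunbuir library in all 6 classes, with log2 folds from -2.02 in cardiomyocytes to -0.39 in the yolk sac class. The list did not move as a whole. Its median tested gene had log2 folds from -1.19 in cardiomyocytes to 0.05 in the yolk sac class, with -0.17 in the PRRX1 TWIST1 mesenchyme. In endothelium 1 of 7 tested genes was called lower, and in intermediate mesoderm 1 of 4. In the PRRX1 TWIST1 mesenchyme 4 of the 9 genes were called lower, FOS, FOSB, EGR1 and ATF3, and DUSP1 was called higher. FOS there had 340.1 CPM in Ujumqin and 51.5 CPM in Hulunbuir cells (log2 fold -2.72), and it was called lower in all 6 classes. JUN was called lower in cardiomyocytes (log2 fold -1.19). The sum of the 4 ID genes moved the other way, with log2 folds of 0.20 to 1.59, but the genes did not move together. The interval of the log2 fold lay above 0 in all 6 classes for ID3 and below 0 in 5 for ID4. For ID1 it lay above 0 in 3 classes and below in 2, and for ID2 above in 2 and below in 2. The erythroid list, of 8 detected genes, summed to 19.9 to 241.2 CPM in the shared Ujumqin classes and to 1.95 to 6.41 CPM in the Hulunbuir ones. In the PRRX1 TWIST1 class its own list of 10 genes, all counted, summed to 7590 and 3490 CPM. The part of these differences in the ID and BMP values was not tested.

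The rest of the pathway was read from a list of 64 genes, of which 57 were among the features. At least 20 UMIs were counted for 39 of them in the Ujumqin library and for 44 in the Hulunbuir library. Of the 10 other ligands found only 3 reached this count in each library. INHBA, an activin subunit, was highest in the Ujumqin PRRX1 TWIST1 class (10.6 CPM), and GDF11, a ligand of the posterior axis, in Hulunbuir caudal progenitors (11.8 CPM).

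Among the other antagonists CER1, which encodes the secreted protein cerberus, had 251.5 CPM in Hulunbuir somites and 250.3 CPM in presomitic cells, the classes in which FST was highest too. FSTL1, a secreted follistatin-like protein, was highest in Ujumqin endothelium (129.2 CPM) and Hulunbuir caudal progenitors (165.5 CPM). CHRDL2, a chordin-like protein, led in the intermediate mesoderm of both libraries, at 7.40 and 14.4 CPM. CHRD itself had 4 and 3 UMIs in kept cells.

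Of the receptors and co-receptors, ACVR2B, a type II receptor, reached 77.3 CPM in Ujumqin intermediate mesoderm and 94.2 CPM in Hulunbuir somites. ENG, an endothelial co-receptor, was highest in endothelium, at 26.2 and 11.0 CPM. BMPR1B, a type I receptor, reached 18.8 CPM in Hulunbuir presomitic cells. SMAD5, which carries the signal of BMP receptors, was highest in intermediate mesoderm (30.4 CPM) and the neural tube (30.7 CPM). The 3 ID partners were counted in both libraries. TCF4 was highest in Ujumqin intermediate mesoderm (88.8 CPM) and Hulunbuir somites (126.1 CPM), and TCF12 in the Ujumqin PRRX1 TWIST1 class (69.5 CPM) and Hulunbuir somites (76.8 CPM).

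BAMBI, a pseudoreceptor that dampens the pathway and is itself a target, was highest in the mesenchyme classes. Its level in the allantois-type class was 406.2 CPM in Ujumqin and 489.0 CPM in Hulunbuir cells, and in the PRRX1 TWIST1 class it was 362.3 and 440.1 CPM. The target TBX3 was highest in the allantois-type class (9.51 CPM) and in Hulunbuir splanchnic mesoderm (17.7 CPM).

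Between the libraries 102 of the 342 pairs of a listed gene and a shared class had enough UMIs, and 17 were called higher and 7 lower, beside 19.4% and 4.19% of all features over these classes. The share called higher was thus near that of all features. In the PRRX1 TWIST1 class 5 of 32 were higher (14.0% of all features), among them the targets MSX1 (0.250 and 1.06 CPM, log2 fold 2.08), MSX2 (0.389 and 1.68 CPM, 2.11) and HAND1 (1.67 and 6.08 CPM, 1.87). INHBA (10.6 and 3.31 CPM, log2 fold -1.68) and RGMB (7.25 and 3.11 CPM, -1.22), a co-receptor, were lower. In endothelium 2 of 23 were higher and 4 lower (18.3% and 4.26% of all features), and the lower ones were BMPR2, ENG, RGMB and JUNB. Of the remaining classes the yolk sac class had 5 higher calls of 8 (52.0% of all features) and the allantois-type class 3 of 18 (13.6%). Cardiomyocytes had 1 of 9 (15.3%) and intermediate mesoderm 1 of 12 (11.2%), with RGMB lower there (2.97% of all features called lower). The median log2 fold of the listed genes in the PRRX1 TWIST1 class was 0.34, beside 0.29 for all features.

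For each member the genes of most similar level were sought by Pearson's r over 21 points, each a class of a library, among 3003 genes that reached 50 CPM. The points share libraries and depth and were not centred by library, so r is a description. ID1 was most like ID3 (0.87), CXADR (0.84) and PRXL2B (0.83), and ID3 was most like EPM2AIP1, SLC39A10 and SS18L2 (0.93 each). ID2 was most like RHOD (0.87), DSTN (0.84) and KRT19 (0.83), and ID4 like IGFBP7, PIGP and RARRES2 (0.72 each). Among the ligands BMP5 had the closest matches, PDLIM3 (0.93), COL18A1 (0.90) and HAND2 (0.90). BMP4 was most like DSP (0.84), STRBP (0.81) and CARS2 (0.81), BMP7 like APPL1 (0.81), METRNL (0.79) and MRPS21 (0.78), and BMP2 like LCAT (0.87), a feature without a symbol (0.85) and NAPRT (0.84). FST was most like SERPINF1 (0.77), GRP (0.70) and a feature without a symbol (0.70). NOG, with its few UMIs, was most like PAX6 and SCUBE2 (0.75 each).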

How the data were processed

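RNA of single cells from day 16 sheep embryos was measured, with 1 pooled library for each breed. The authors deposited counts: the number of UMIs that Cell Ranger assigned to each gene in each barcode, filtered by its cell caller and not normalized. The file header names Cell Ranger 5.0.0, while the submitters' processing notes list Cell Ranger 3.1.0, Seurat 3.2.0 and R 3.6.1; the reads were aligned to the Rambouillet sheep assembly.

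All values here were computed from these counts with scanpy 1.11.5, scipy 1.17.1, numpy 2.4.6 and pandas 2.3.3 in Python 3.11.15. Barcodes with 200 genes or more and a mitochondrial share under 10% of UMIs were retained. Each of the 10 members matched 1 feature. Of 20 marker lists, 133 of 141 gate genes and 55 of 60 check genes were found by symbol. A marker was high in a cell when its CPM reached 1/10 of the library's 99th percentile and its UMIs exceeded the 99th Poisson percentile of free RNA set at 10% of the library mean. A cell needed 2 high markers of a list and a lead of 1 over the other lists. This gate rule was set after seeing the data. The 10 genes and the pathway genes were in no gate.

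Levels are summed UMIs per 1000000 UMIs of a class (CPM), with exact Poisson intervals, and shares of cells have exact binomial (Clopper-Pearson) intervals, all at 95% and for counting error only. PCR and capture error are not in them. A floor of 3 counts was used for zeros. Shares were repeated with cells thinned to 1000 UMIs, which left out shallower cells. A fold was called at 2-fold with at least 20 UMIs over both libraries. Genes of similar level were ranked by Pearson's r of log2(CPM + 10). Named were all 10 members, the 2 to 4 pathway genes of highest level in each role, the 3 most similar genes and calls past the limit. Cells are not replicates, so no p-value was computed. Doublets were scored with Scrublet, which marked 153 Ujumqin cells (1.05%) and 89 Hulunbuir cells (0.929%), and all cells were kept. The doublet alternative removed more, the 1986 and 821 cells of highest score, by an expected share of 13.6% and 8.57%. The steps were tested on simulated data. The members, the marker and pathway lists and the settings were chosen with earlier results of these data known, and the immediate early genes were added after seeing the data. The alternatives were 500 genes per cell, 3 gate markers, other totals, the mean of the cells' CPM, doublet removal, other limits and other thinning depths. The totals without leading erythroid features, the removal of shared barcodes, the centring of folds and the leaving out of classes were added after seeing the data.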

Additional observations from a re-analysis of the deposited data

Results flagged for a closer look

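The log2 fold of BMP7, ID1 and ID2 between the libraries went in opposite directions in different classes, with counting intervals on either side of 0. The difference between the classes was not tested beyond these intervals, and each direction rests on 1 library per breed.

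BMP7 was higher in the Hulunbuir library in endothelium (log2 fold 0.86, interval 0.07 to 1.71), cardiomyocytes (1.44, interval 0.51 to 2.51) and the yolk sac endoderm class (2.99, interval 2.29 to 3.72). It was lower in the allantois-type mesenchyme (log2 fold -0.71, interval -1.01 to -0.41) and in the PRRX1 TWIST1 mesenchyme (-0.85, interval -0.95 to -0.74). ID1 was higher in the yolk sac class (log2 fold 1.01, interval 0.88 to 1.15), the allantois-type class (1.31, interval 1.21 to 1.40) and the PRRX1 TWIST1 class (1.13, interval 1.10 to 1.16). ID1 was lower in endothelium (log2 fold -0.13, interval -0.21 to -0.05) and intermediate mesoderm (-0.35, interval -0.46 to -0.24). ID2 was higher in the allantois-type class (log2 fold 0.88, interval 0.62 to 1.15) and the PRRX1 TWIST1 class (0.43, interval 0.34 to 0.53). ID2 was lower in endothelium (log2 fold -0.66, interval -0.94 to -0.37) and intermediate mesoderm (-0.87, interval -1.40 to -0.33). Of these values BMP7 in cardiomyocytes and the yolk sac class and ID1 in the yolk sac, allantois-type and PRRX1 TWIST1 classes passed 2-fold.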

How the results depend on the processing

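The calls of members higher (15) and lower (9) in the Hulunbuir library became 5 and 3 with 3 gate markers. Only endothelium and the PRRX1 TWIST1 mesenchyme were shared there. At a 4-fold limit the calls became 6 and 2. The shares of all features called under these settings are not given, so the counts do not show how the members stand against other features. With the mean of the cells' CPM there were 5 lower calls of members, some of them new and not named here. ID4 then turned to log2 folds of 0.41 in cardiomyocytes and 0.81 in the yolk sac class. Calls were then also lost for BMP7 in cardiomyocytes (0.84), for BMP2 (-0.81) and FST (-0.43) in the yolk sac class, for BMP4 (0.69) and FST (-0.84) in the allantois-type class, and for FST in the PRRX1 TWIST1 class (-0.79). ID4 in endothelium was lost with 3 gate markers (-0.82) and ID1 in the yolk sac class without the leading erythroid features (0.98). ID3 lost its call in intermediate mesoderm after centring, and there and in endothelium at the 4-fold limit. The cause of these changes was not tested. The class of highest level stayed the same for 8 of 20 pairs of a gene and a library with 3 gate markers, where 5 and 6 classes were left, and for 16 to 20 pairs otherwise.

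The rank correlation of ligand and ID sums in the Ujumqin library (0.564) was 0.30 with 3 gate markers, 0.697 with the total without mitochondrial, ribosomal and haemoglobin genes, 0.709 with the mean of cells and 0.417 without the cells of highest doublet score (1986 Ujumqin and 821 Hulunbuir cells). With BMP4 alone (0.673) it was 0.60 with 3 markers, 0.30 without these cells and 0.576 without the leading erythroid features. In the Hulunbuir library the sums (0.473) gave 0.143 with 3 markers and 0.573 with the mean of cells. BMP4 alone (0.582) gave 0.371 with 3 markers, 0.636 with 500 genes, 0.709 with the mean of cells and 0.515 without these cells. Leaving out 1 class at a time gave 0.417 to 0.70 and 0.567 to 0.783 for the sums and BMP4 in Ujumqin cells, and 0.297 to 0.673 and 0.442 to 0.733 in Hulunbuir cells. Leaving out classes gave 10 to 14 higher and 6 to 9 lower calls of members, again without the shares of all features beside them. Of 325 log2 folds under other settings 291 stayed within their counting interval, 32 moved out of it and 2 reversed. This pooled count is carried by mild settings. All 51 folds stayed with 500 genes, with either other total and without shared barcodes. With 3 gate markers 10 moved and 9 stayed, and with the mean of cells 16 moved, 2 reversed and 33 stayed. Without the cells of highest doublet score 6 moved and 45 stayed. No paired analysis was possible because each breed has 1 library. Low counts limit BMP2 and NOG most.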

Other observations

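Classes under 50 cells were kept out of the comparisons. The Ujumqin somite class, with 31 cells, had 503 CPM of FST from 466 UMIs, 1993 CPM of ID1 and 836 CPM of ID3. The Ujumqin caudal progenitor class, with 15 cells, had 408 CPM of FST from 169 UMIs, 1834 CPM of ID1 and 16.9 CPM of BMP4. Hulunbuir caudal progenitors had 11.3 CPM of FST, 1250 CPM of ID1 and 65.3 CPM of BMP4. The Hulunbuir KRT7 epithelium class, with 40 cells, had 104 CPM of BMP7 from 99 UMIs, 1590 CPM of ID1 and 1129 CPM of ID3. The Ujumqin neural tube class, with 35 cells, had 1091 CPM of ID1 and 459 CPM of ID3.

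NOG is known as a gene of the notochord. Of the 75 Hulunbuir cells with a NOG UMI, 1 had UMIs of both notochord genes T and NOTO, and none had one of SHH, FOXA2 or CHRD. None of the 26 Ujumqin cells with a NOG UMI had a UMI of any of these 5 genes. In all kept cells of the Ujumqin and Hulunbuir libraries T was counted in 13 and 106 cells, SHH in 7 and 8, FOXA2 in 7 and 11, NOTO in 2 and 8, and CHRD in 4 and 3.

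Over the same 21 points, the members most alike in level were ID1 and ID3 (Pearson's r 0.87), BMP4 and ID1 (0.73), BMP4 and ID3 (0.68), and ID2 and ID4 (0.66). BMP4 and BMP7 followed (0.63). FST with ID2 had -0.10, and BMP5 with ID3 had 0.099. The points share libraries and depth, and these values are given as descriptions. They were not centred by library, and the class medians of BMP4, ID1 and ID3 were all higher in the Hulunbuir library. The part of this shift in r was not tested.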
